A study of Mus musculus with 4 samples.

Results

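The 80 genes described here encode the proteins of the cytosolic ribosome and their named paralogs. They are the protein-coding genes of the GENCODE M21 annotation whose symbols are Rpl or Rps with a number, with or without a suffix a, l, x or y, together with Rplp0, Rplp1, Rplp2 and Rpsa. Genes of the Rps6k kinase family and pseudogenes were left out. Of 21938 protein-coding genes outside the mitochondrial genome, 49 encode proteins of the large subunit and 31 proteins of the small subunit under this rule, and the other 21858 serve as the background. The rule used names only and no measured value, but it was chosen with earlier results of these data known.

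The ribosome translates messenger RNA into protein, and it is built from a small subunit, which reads the message, and a large subunit, which joins the amino acids. Its protein genes are short, are transcribed strongly in nearly every dividing cell, often carry small nucleolar RNA (snoRNA) genes in their introns, and have left many processed pseudogene copies across the genome. Smad1 is a transcription factor that bone morphogenetic protein (BMP) receptors activate, and it carries BMP signals to chromatin.

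Smad1 binding was measured by ChIP–seq in embryoid bodies (EBs), the aggregates in which mouse embryonic stem (ES) cells differentiate, on day 4 of culture. All groups came from the GFP-Bry reporter line, in which GFP is knocked into the Brachyury locus, and their EBs were dissociated, reaggregated and kept for 24 h in DMSO, the vehicle, or in 10 µM IWR-1, an inhibitor of Wnt signalling. Each treatment had 1 library of Smad1 ChIP and 1 of input chromatin, from whole EBs of mixed cell types of a single line. Differences between treatments therefore have no replicate check, and none is tested.

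The data are 5 lists of peaks in mm10 coordinates. The labels of 3 of them go against their contents, and that of a further list is in doubt. The DMSO MACS list (15927 peaks) and the list of common DMSO sites (10466) are filed with the DMSO input, and the DMSO QESEQ list (26070 peaks) with the IWR-1 input. Their deposited names give DMSO. By position they belong together, because all 10466 common sites recur as identical intervals in that QESEQ list and all overlap that MACS list. The IWR-1 QESEQ list (16261 peaks) is filed with the IWR-1 ChIP. A second MACS list (7815 peaks) is filed with the DMSO ChIP and overlaps 2701 common sites. Its deposited name gives IWR-1, against the label it is filed under. Its treatment thus stays in doubt, so each result from it is named as such. Read counts are not part of the lists, and the depth of single peaks is unknown.

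A common site is thus an interval that both callers listed in DMSO, and 17 of them lay within 2 kb of 14 ribosomal protein genes. The central 200 bp of 4 of these sites follow, on the plus strand of GRCm38, the assembly behind mm10. The first 3 lie upstream of their genes and were overlapped by an IWR-1 QESEQ peak, and capitals there mark runs of at least 7 A or T. A run is always of A alone or of T alone, and stretches that mix them are not counted. Such runs recur at these sites, which is why they are shown. Rpl22 is shown as a site without one.
Rpl35a, chr16:33054885-33055084: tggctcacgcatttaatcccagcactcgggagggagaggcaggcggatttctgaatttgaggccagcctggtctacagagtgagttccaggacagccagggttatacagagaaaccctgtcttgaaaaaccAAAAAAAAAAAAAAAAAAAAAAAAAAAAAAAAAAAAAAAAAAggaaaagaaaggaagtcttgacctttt
Rpl38, chr11:114667626-114667825: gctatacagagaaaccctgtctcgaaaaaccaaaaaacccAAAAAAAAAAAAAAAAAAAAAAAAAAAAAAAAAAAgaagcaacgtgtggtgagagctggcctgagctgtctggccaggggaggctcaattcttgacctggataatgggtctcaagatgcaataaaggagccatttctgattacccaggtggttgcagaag
Rps23, chr13:90921912-90922111: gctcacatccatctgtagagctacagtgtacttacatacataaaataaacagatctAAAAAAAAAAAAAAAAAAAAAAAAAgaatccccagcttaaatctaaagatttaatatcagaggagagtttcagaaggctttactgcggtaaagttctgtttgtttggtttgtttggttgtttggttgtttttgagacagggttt
Rpl22, chr4:152334717-152334916: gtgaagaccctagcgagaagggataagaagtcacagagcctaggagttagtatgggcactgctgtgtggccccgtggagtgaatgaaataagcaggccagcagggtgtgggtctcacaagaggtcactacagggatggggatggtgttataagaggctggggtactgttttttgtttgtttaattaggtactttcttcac

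Smad1 sites were listed at Rps29, Rpl35a, Rpl38 and other ribosomal protein genes at a share slightly below that of other genes when the whole gene was considered, and above it when only the region around the transcript start was. Within 2 kb of the gene, 14 of 80 had a common site, 17.5% (95% exact binomial interval 9.91 to 27.6), against a background of 19.5% of the other protein-coding genes. The DMSO MACS list reached 16 genes, 20.0%, against 25.1%, and the DMSO QESEQ list reached 25 genes, 31.2%, against 36.6%. In the IWR-1 QESEQ list 17 genes had a peak, 21.2%, against 27.1%, and in the second MACS list 7 had one, 8.75%, against 14.5%. In every list the share was the lower one, and the background fell inside the interval of the ribosomal protein genes. Intervals here cover counting error over genes only, and genes are not replicates of a treatment.

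These windows differ in length, because the ribosomal protein genes span a median of 3328 bp and the other genes 17577 bp. Around the start of the main transcript, where each gene has a window of 2 kb to either side, the order turned. There, 10 of 80 had a common site, 12.5% (6.16 to 21.8), against 4.50%. The DMSO MACS list held a peak at 12 starts, 15.0% against 5.80%, and the DMSO QESEQ list at 18, 22.5% against 9.14%. The IWR-1 QESEQ list held one at 10 starts, 12.5% against 5.77%, and the second MACS list at 7, 8.75% against 3.05%. In all 5 lists the background lay below the interval of the ribosomal protein genes. Lists share libraries and sites, here and for the whole gene, so the 5 are not separate observations. Among genes of like length the whole-gene share was also the higher one, with a common site at 3 of 9 ribosomal protein genes under 2 kb (background 3.61%), at 4 of 54 of 2 to 5 kb (background 4.80%), at 4 of 13 of 5 to 10 kb (background 7.21%) and at 3 of 4 over 10 kb (background 26.9%). The shares in most classes rest on few genes. In the class of 2 to 5 kb, which holds 54 of the 80, the share was 7.41%, close to its background. There the second MACS list had 3.70% against 3.68%. The 4 genes over 10 kb (Rpl11, Rpl3, Rps14 and Rps15a) are all annotated over 5 kb longer than their main transcript.

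**Figure D1:**
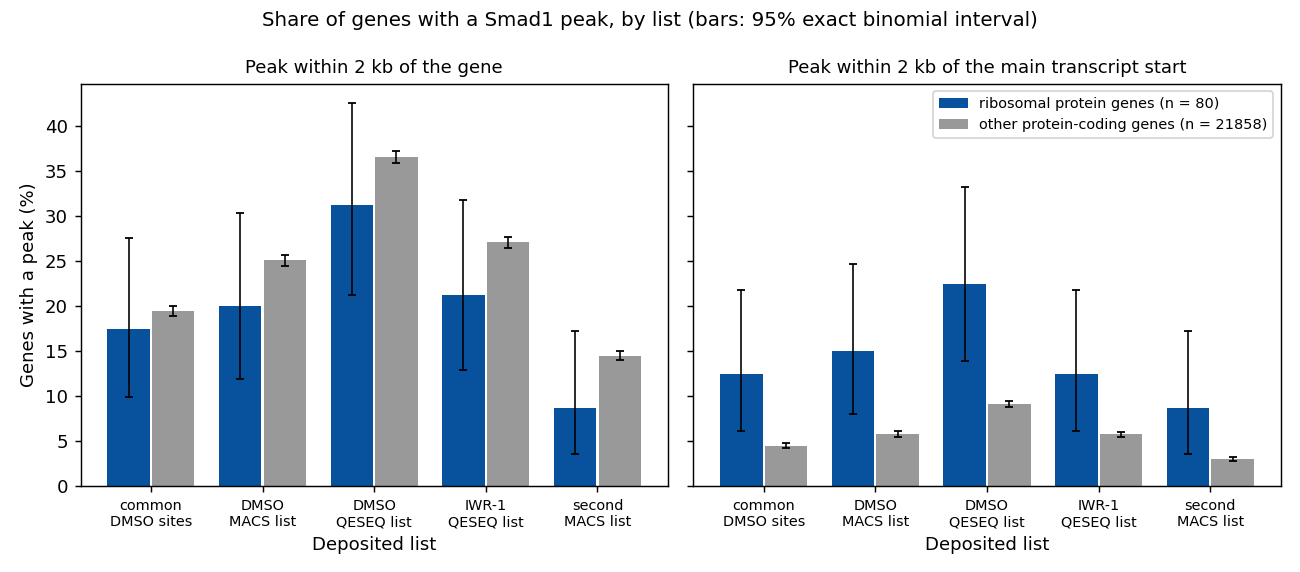
Share of genes with at least 1 Smad1 peak in each deposited list, for the 80 ribosomal protein genes and the 21858 other protein-coding genes, with 95% exact binomial intervals. Left, within 2 kb of the gene, the ribosomal protein genes are lower in each list; right, within 2 kb of the main transcript start, they are higher, for example 12.5% against 4.50% for common DMSO sites.

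Near the starts, most sites stood upstream. Of 10 common sites centred within 2 kb of a start, 9 were upstream, 90.0% (55.5 to 99.7), where other genes had 576 of 934 upstream, 61.7%. Counted by gene, 9 ribosomal protein genes had a common site centred upstream, 11.2% against a background of 2.60%, and 1 had one centred downstream of the start, 1.25% against 1.63%. In the DMSO MACS list 10 of 12 peaks were upstream (51.6 to 97.9, other genes 62.3%). In the DMSO QESEQ list 16 of 19 peaks were upstream (60.4 to 96.6, other genes 59.1%). In the IWR-1 QESEQ list 10 of 10 were (69.2 to 100, other genes 60.5%), and in the second MACS list 7 of 7 (59.0 to 100, other genes 65.0%). The share of peaks at other genes lay inside the interval for the common sites, the DMSO MACS list and the second MACS list. It lay below the interval for the 2 QESEQ lists, narrowly so in DMSO. Of the 10 common sites, 2 were centred within 500 bp of the start, 20.0%, where other genes had 302 of 934, 32.3%. In both sets, most sites thus lay farther from the start. The other 8 of the 10 were centred 800 to 1700 bp upstream. That range was set after the positions were seen and was not counted at other genes. RefSeq promoter windows (250 bases before to 50 after the start) were matched by symbol for 60 of the genes, not for Rps29, whose site covers its start. A common site overlapped 1 of the 60, that of Rps28, 1.67% against a background of 1.11%. The DMSO MACS list overlapped 2, Rps10 and Rps28, 3.33% against 1.37%, and the DMSO QESEQ list 2, Rpl6 and Rps28, 3.33% against 1.82%. The IWR-1 QESEQ and second MACS lists overlapped 0 of them. These counts are too small to set them apart from the background. The DMSO MACS peak of Rps10 was centred 1004 bp past its main start, so the RefSeq window it overlapped belongs to another start.

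**Figure D2:**
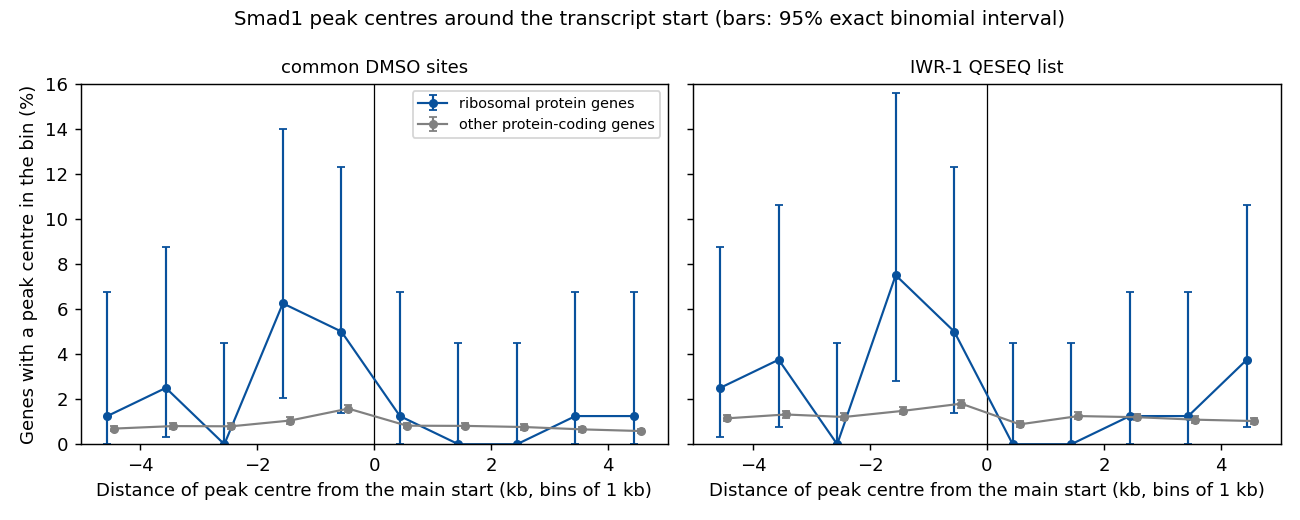
Share of genes with a Smad1 peak centred in each 1 kb bin around the main transcript start, with 95% exact binomial intervals, for the common DMSO sites and the IWR-1 QESEQ list. The ribosomal protein genes are highest in the bin from 2 to 1 kb upstream, at 6.25% and 7.50%, and the other genes are lower in both bins upstream of the start.

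In the large subunit, 6 of 49 genes had a common site. Rpl35a, a gene mutated in some patients with Diamond-Blackfan anaemia, a failure of red cell formation, was listed in all 5 lists. Its common site (chr16:33054598-33055373) was centred 1468 bp upstream of the start, with a DMSO MACS score of 130.75, the 94.4th percentile of that list, and a score of 73.03 in the second MACS list. The score is the value MACS gave each peak, and it ranks peaks within its own list only. This site also overlapped Iqcg, a protein-coding neighbour whose start was 1204 bp from its centre. Rpl38, which is needed in the mouse for translation of Hox messages, was the other large subunit gene in all lists. Its site (chr11:114667466-114667987) was centred 822 bp upstream and scored 80.92 in the DMSO MACS list, the 76.1st percentile, and 62.37 in the second MACS list. The IWR-1 QESEQ peak of Rpl38 was centred 544 bp upstream, overlapped the common site and held at most 5 A or T in a row, so that the long run printed above lay outside it apart from its end.

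Rpl3, whose protein reaches into the peptidyl transferase centre, had the most common sites of all, 3. The highest, 5378 bp upstream of the main transcript at chr15:80088215-80089353, scored 111.10 (91.9th percentile) and lay along a longer annotated transcript of the gene. Its site 1194 bp upstream scored 59.49, and its site over intron 6 and exon 7 scored 60.68. The highest and the intragenic site had an IWR-1 QESEQ call, and the site 1194 bp upstream had none. Rpl21 had a site 1055 bp upstream (score 57.41), Rpl12, a protein of the stalk base, had one 3760 bp downstream of its start and past the end of its main transcript (55.62), and Rpl22, which T cell development needs, had one 8964 bp downstream, also past its end (61.05). None of these 3 sites had a call in an IWR-1 list or the second MACS list. Rpl12 did have an IWR-1 QESEQ peak elsewhere, 1122 bp upstream, which neither DMSO list held and which lay 818 bp from the start of Lrsam1.

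In the small subunit, 8 of 31 genes had a common site. Rps29 had the highest score of any ribosomal protein gene in both MACS lists, 785.35 in DMSO (99.2nd percentile) and 497.49 in the second list (97.9th percentile). Its site (chr12:69159021-69159695), 172 bp upstream by its centre, overlapped exon 1 and covered Rn7s1, a gene for the 7SL RNA of the signal recognition particle, which RNA polymerase III transcribes and which begins 109 bp upstream of the Rps29 start. Rn7s2, whose annotated 300 bases are identical to those of Rn7s1 in all 300, also had a peak in all 5 lists, so reads within the 2 genes cannot be told apart. Whether the score belongs to Rps29 or to Rn7s1 was not tested.

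Rps21 was the other small subunit gene in all 5 lists, with a site at chr2:180255502-180256017, centred 1618 bp upstream, that scored 63.45 in DMSO and 52.61 in the second MACS list. Rps23, whose protein sits at the decoding centre, had a site at chr13:90921805-90922219, 946 bp upstream, that scored 74.39 and had an IWR-1 QESEQ call. Rps15a (928 bp upstream, score 51.58) had no IWR-1 QESEQ call but was in the second MACS list with 53.35. Rps3, which lines the entry of the messenger RNA channel, had a site 1686 bp upstream with a score of 59.10 and no such call. Upstream positions were thus shared by most of these genes, while scores ranged on both sides of the list's median of 65.32.

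The remaining small subunit sites were shared with, or far from, their neighbours. Rps24 had a site 3496 bp upstream of its main start that scored 103.98 (90.0th percentile) and overlapped the start of a longer annotated transcript of Rps24. Its centre lay 170 bp from the start of Polr3a, which encodes the largest subunit of RNA polymerase III. Its second site, 6821 bp downstream of the start and past the main transcript, scored 73.56. The IWR-1 QESEQ list had a peak over the first and none over the second. Rps28 had the only common site centred inside a gene's first 500 bp, 18 bp past the start, and with a score of 72.89 it also covered the start of Ndufa7, a subunit gene of mitochondrial complex I. No IWR-1 call overlapped it. Rps14, whose loss contributes to the anaemia of the 5q deletion syndrome, owed its site (score 73.12) to a longer annotated transcript, since the centre was 10704 bp upstream of the main start.

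**Figure D3:**
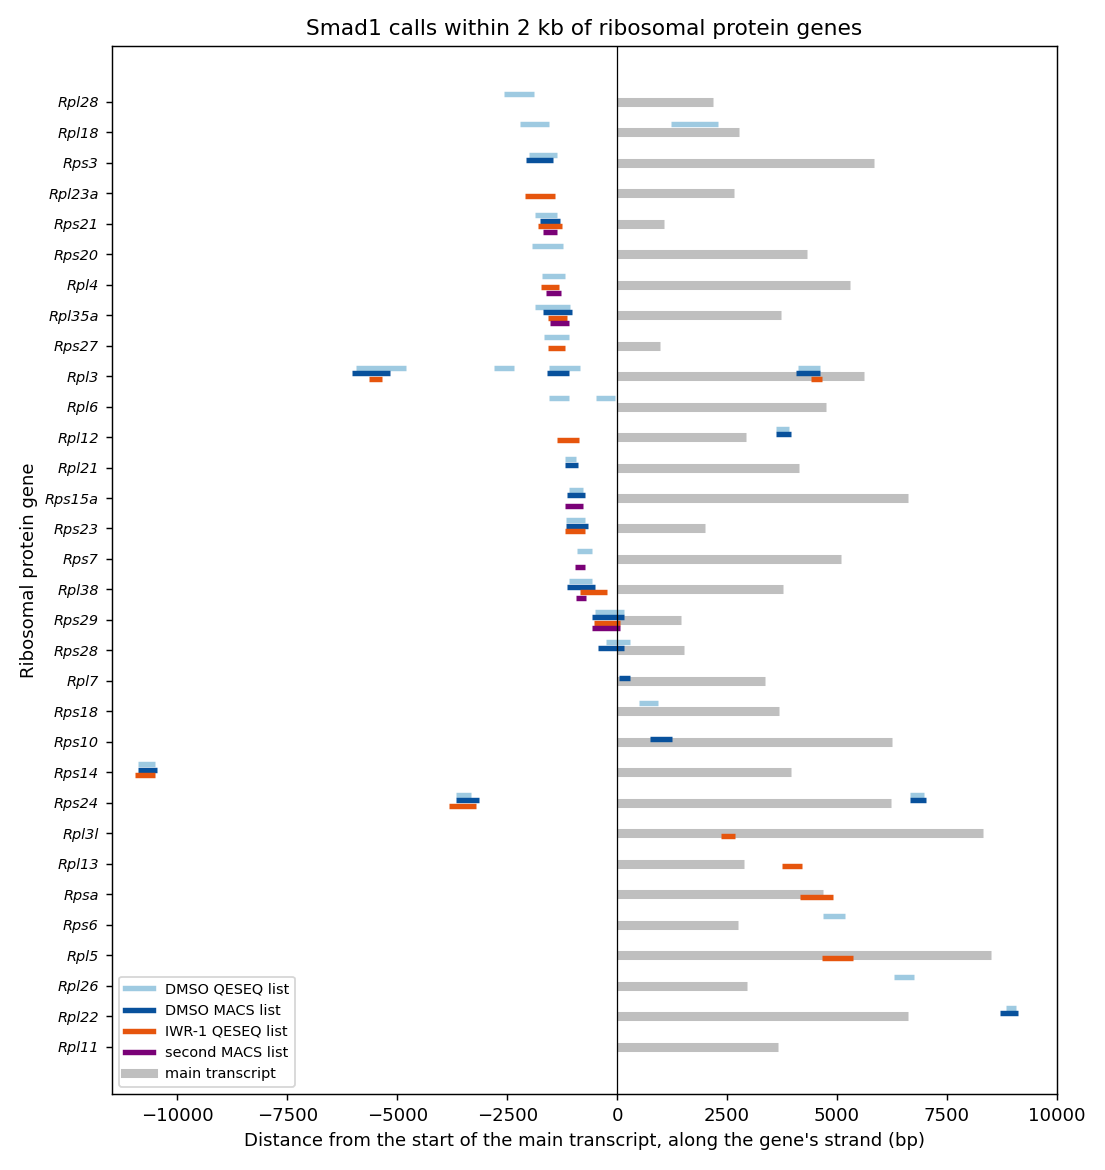
Smad1 peaks within 2 kb of the ribosomal protein genes named here with a call, drawn to scale by distance from the start of the main transcript (grey bar). Most calls of the 4 lists drawn sit left of the start; the DMSO QESEQ peaks of Rpl11 (26635 bp downstream) and Rps14 (29600 bp upstream) fall outside the drawn range.

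Outside the common sites, single lists added further genes. Rpl4, of the peptide exit tunnel, Rps27 and Rps7 were in the DMSO QESEQ list and in an IWR-1 or second MACS list without a DMSO MACS peak. Rpl4 had an IWR-1 QESEQ peak 1516 bp upstream and a second MACS score of 51.61, and its peaks overlapped the neighbour Zwilch. Rps27 had an IWR-1 QESEQ peak 1378 bp upstream, and Rps7, whose protein can bind Mdm2, had a second MACS peak 840 bp upstream with a score of 55.22. With the 10 genes of common sites that had such a call in their window, 13 ribosomal protein genes were listed both in DMSO and in an IWR-1 or second MACS list, 16.2% (8.95 to 26.2) against a background of 23.9% of other protein-coding genes. All 5 lists held 4 of the 80, 5.00% (1.38 to 12.3) against 7.48%.

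The DMSO lists alone held 14 genes, 17.5% (9.91 to 27.6), a share close to the background of 15.6%. They were Rpl21, Rpl22, Rps28 and Rps3, described above, 2 genes of the DMSO MACS list (Rpl7, with a peak over exon 1 scoring 59.85, and Rps10, with a peak in intron 1 scoring 67.06), and 8 of the DMSO QESEQ list (Rpl11, Rpl18, Rpl26, Rpl28, Rpl6, Rps18, Rps20 and Rps6). Rpl11 encodes a partner of Mdm2, and its peak lay 26635 bp past the main start, beside a longer annotated transcript. Rps6, the substrate of the S6 kinases, is in this group by its window only, because its DMSO QESEQ peak, 4934 bp past the start, was overlapped by peaks of the IWR-1 QESEQ list and the second MACS list that ended outside 2 kb.

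The IWR-1 QESEQ list alone held 6 genes, 7.50% (2.80 to 15.6) against a background of 4.77%, which lay inside the interval. Among them were Rpl13, Rpl23a, Rpl3l, Rpl5 and Rpsa. The Rpl23a peak, 1753 bp upstream, belongs to a gene whose protein lies at the tunnel exit where the signal recognition particle docks. The peak of Rpl5, a protein that carries 5S RNA and binds Mdm2, was in intron 6, over an annotated snoRNA gene. Rpl3l, the paralog of Rpl3 in striated muscle, had its peak in intron 2, Rpsa, also known as the laminin receptor precursor, in the untranslated part of exon 7, and Rpl13 had its peak 3976 bp from the start, past the transcript's end. These peaks carry no score and had none in the second MACS list.

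The genes of the ribosomal stalk, Rplp0, Rplp1 and Rplp2, whose proteins recruit the elongation factors, had no peak in any list. They belong to 47 genes without a call, among them Rpl10, Rpl10a, Rpl10l, Rpl13a, Rpl14, Rpl15, Rpl17, Rpl19, Rpl23, Rpl24, Rpl27, Rpl27a, Rpl29, Rpl30, Rpl31, Rpl32, Rpl34, Rpl35, Rpl36, Rpl36a, Rpl37, Rpl37a, Rpl39, Rpl39l, Rpl41, Rpl7a, Rpl8, Rpl9, Rps12, Rps13, Rps15, Rps16, Rps19, Rps2, Rps25, Rps26, Rps27a, Rps27l, Rps4x and Rps9. Of the paralogs among the 80, Rpl10l, Rpl39l and Rps27l were in this group. A missing call says only that no peak passed the callers' cutoffs there. Of the 29 genes with a snoRNA gene inside, 4 had a common site (Rpl12, Rpl21, Rpl3 and Rps3), 13.8% (3.89 to 31.7), against 42.2% of 441 other protein-coding genes with one inside, which were not matched on gene length. A snoRNA gene was overlapped by 0 of the 17 common sites (upper bound 19.5%) and by 0.111% of the sites at other genes, so that a count of 0 says nothing about these genes.

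Most site scores were in the middle of their list. The 19 DMSO MACS peaks at ribosomal protein genes had a median score of 67.06, from 51.58 to 785.35, and a median percentile of 53.9 (34.3 to 76.1), where peaks at other genes had 49.0. Without the Rn7s1 peak of Rps29 the median percentile was 49.7. A score of at least 100 was reached by 4 of 19 peaks, 21.1%, and by 10.5% of peaks at other genes. Those 4 were the peaks of Rps29, Rpl35a, Rpl3 and Rps24 given above. In the second MACS list the 7 peaks had a median percentile of 25.6 (9.2 to 97.9), and other genes 49.2.

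Rps29, Rpl35a, Rpl38 and Rps21 had a call in the IWR-1 QESEQ list and the second MACS list, while the sites of Rps28, Rps3, Rpl21, Rpl22 and Rpl12 had none. The IWR-1 QESEQ list had no call over 8 of 17 common sites, 47.1% (23.0 to 72.2), against a background of 61.1% of 5401 common sites at other genes. The second MACS list had no call over 12 of 17, 70.6% against 74.5%, neither list over 7, 41.2% against 54.5%, and a call was missing from at least 1 of them over 13, 76.5% against 81.1%. Of sites centred within 2 kb of a start, 5 of 10 had no IWR-1 QESEQ call, and the share at other genes was 49.8%. All these background shares lay inside the intervals. In the other direction, 7 of 18 IWR-1 QESEQ peaks at ribosomal protein genes overlapped neither DMSO list, 38.9% (17.3 to 64.3), where other genes had 51.7%, and 0 of 7 peaks of the second MACS list did (upper bound 41.0%), where other genes had 28.5%.

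The sites without an IWR-1 call had the lower scores by their median. The 9 common sites with an IWR-1 QESEQ call had a median DMSO score of 80.92, from 60.68 to 785.35, and the 8 without had 59.30, from 51.58 to 73.56. The 5 highest, at Rps29, Rpl35a, Rpl3, Rps24 and Rpl38, all had a call, and the ranges overlapped below. Other genes had the same order, with medians of 70.63 and 63.84. The missing calls thus moved with the score, whose part in them was not tested. With 1 library a treatment, an effect of IWR-1 and a difference in enrichment or usable reads between libraries cannot be told apart.

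**Figure D4:**
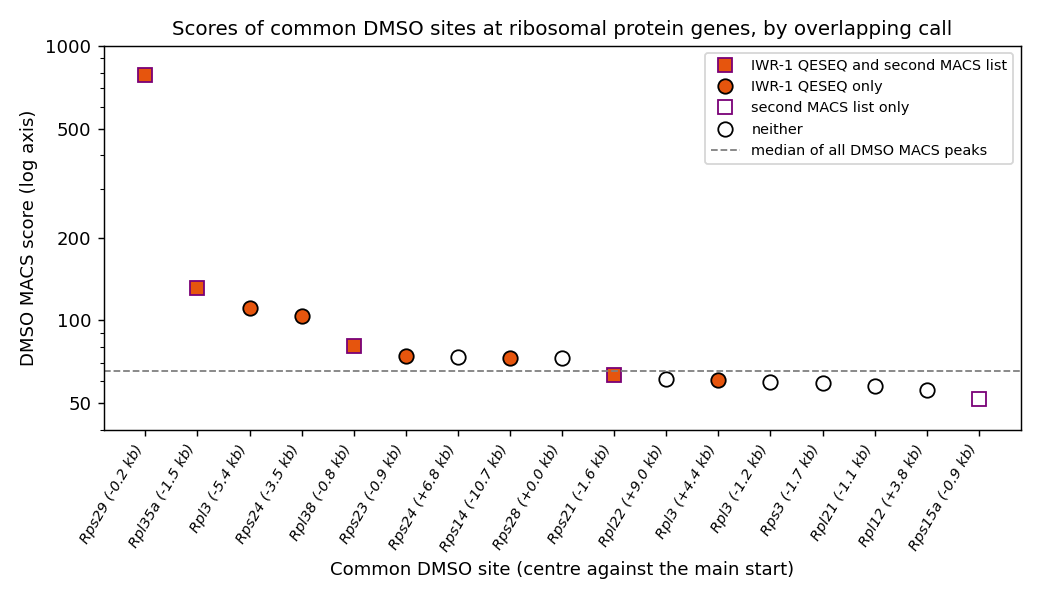
DMSO MACS score (log axis) of the 17 common DMSO sites at ribosomal protein genes, in falling order, with fill and outline showing an overlapping IWR-1 QESEQ or second MACS call. The sites with an IWR-1 QESEQ call include the 5 highest, from Rps29 at 785.35 down to Rpl38 at 80.92, and the dashed line is the median of all DMSO MACS peaks, 65.32.

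The sequences printed for Rpl35a, Rpl38 and Rps23 share long runs of A, and this was common among the sites. A run of at least 7 A or T stood within 13 of 17 whole sites, 76.5% (50.1 to 93.2), against 88.6% at other genes, and in 32.4% of windows of the same width shifted by 2 kb (30.1% at other genes). For runs of at least 15 the shares were 70.6% and 80.8%, with 14.7% and 4.04% of flanks. The longest run was 42 bases, at Rpl35a, followed by 35 at Rpl38 and 30 at Rps21, and the median was 21 (other genes 25). No run of 7 was in the sites of Rpl22, Rps28, Rps29 and the downstream site of Rps24. Motifs were searched in the whole sites on both strands: GGCGCC, a BMP-type Smad motif, was in 1 of 17 sites (other genes 3.67%), GGAGCC in 4 (19.6%), the Smad element CAGACA in 6 (32.9%), the TCF/LEF motif CTTTGAT in 0 (6.78%), the GATA motif AGATAA in 0 (20.1%) and the AP-1 motif TGACTCA in 2 (6.89%). The interval of AGATAA ended at 19.5%, narrowly below the share at other genes, and those of the other motifs held it. The shifted windows at ribosomal protein genes held GGCGCC in 5.88%, GGAGCC in 38.2% and CAGACA in 44.1%. They held CTTTGAT in 8.82%, AGATAA in 20.6% and TGACTCA in 0. At other genes, AGATAA was in 23.7% of the shifted windows. Bases masked as repeats made up a median of 50.6% of a site (38.1 to 62.8), against 36.3%.

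Long runs were also frequent upstream of ribosomal protein genes without a site. In the 2 kb before the start, the 9 genes with an upstream common site had a median longest run of 25 bases, and 8 of them had one of at least 15 (Rps29, with 10, was the exception). The 71 genes without had a median of 11, and 28 of them, 39.4%, had such a run, where 17.0% of other genes without a site did. Among genes with a run of at least 15, 8 of 36 ribosomal protein genes had an upstream common site, 22.2% (10.1 to 39.2), against 10.2%. Among genes with none, 1 of 44 did (Rps29), 2.27%, against 0.886%. In both classes the share of ribosomal protein genes was the higher one and the background lay inside the interval, narrowly so for genes with a run. This comparison was chosen after the sites had been seen, and the part of repeats in the upstream calls was not tested.

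**Figure D5:**
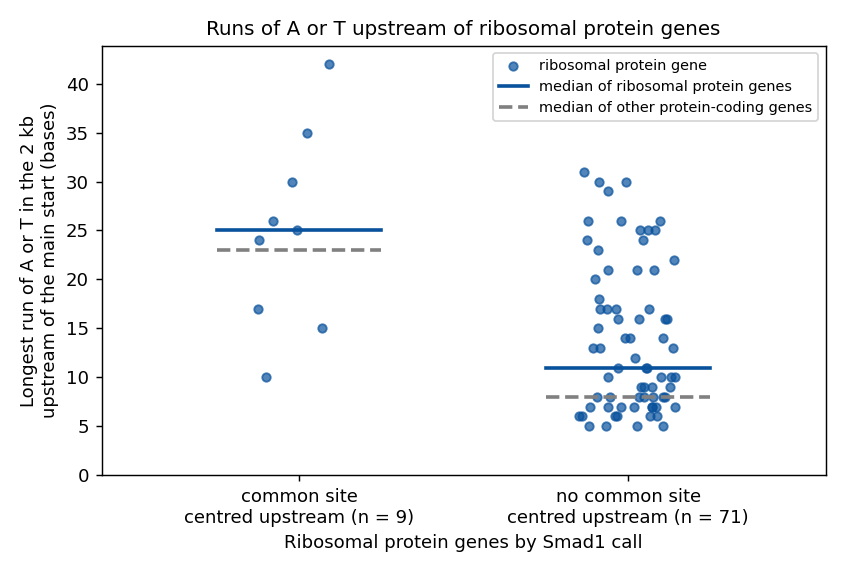
Longest run of A or T in the 2 kb upstream of the main start of each of the 80 ribosomal protein genes, split by whether a common DMSO site is centred there, with medians (blue, solid) and the medians of other protein-coding genes (grey, dashed). Genes with a site have a median of 25 bases and genes without one 11, and the groups overlap.

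Other gene lists of protein synthesis, chosen by symbol, gave the following shares for common sites within 2 kb of the gene. The mitochondrial ribosomal proteins had 11 of 78, 14.1% (7.26 to 23.8). Initiation factors, a list by the prefix Eif that also takes the Eif2ak kinases, had 15 of 55, 27.3% (16.1 to 41.0). Elongation factors, by the prefix Eef and with their methyltransferases and kinase, had 2 of 13, and these were Eef1akmt1 and Eef2k. Ribosome biogenesis factors had 4 of 25, namely Gnl3, Ncl and Npm1, which are nucleolar proteins, and Rrn3, an initiation factor of RNA polymerase I. Within 2 kb of the start the shares were 5.13% for the mitochondrial ribosomal proteins, 10.9% for the initiation factors, 7.69% for the elongation factors and 4.00% for the biogenesis factors, beside 12.5% for the cytosolic ribosomal protein genes and a background of 4.50%. The start share of the initiation factors was thus close to that of the cytosolic ribosomal protein genes. The whole-gene intervals of the lists overlapped, and no list was tested against another.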

How the data were processed

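Peak positions and MACS scores were used as the authors deposited them. Per the study's methods and the submitters' processing notes, the authors converted base calls with CASAVA 1.8, mapped the reads to mm10 with Bowtie2 2.1.0, removed duplicates, and called peaks once per treatment with MACS 1.0.1 and QESEQ. Whether the input served as control is not given in the sources used here.

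The ribosomal protein genes, the gene lists and the comparisons were chosen with earlier results of these data known. Genes named with values were those with a common site, those with a call in an IWR-1 list and neither DMSO list, the one with the highest second MACS score, and Rplp0, Rplp1, Rplp2 and Rpsa; other genes are given by their calls, with positions or scores for Rpl4, Rpl7, Rpl11, Rps6, Rps7, Rps10 and Rps27, which were picked as examples after their values were seen. Some genes and sequences are not reported here. Gene models were GENCODE M21, and the main transcript was the principal coding one. Overlap was counted from 1 bp. A common site took the highest score of the DMSO MACS peaks over it. Intervals are 95% exact binomial (Clopper-Pearson; order statistics for medians). Sequence, with repeats masked, was that of GRCm38 from NCBI, and promoters from RefSeq. Overlap and position steps were tested on simulated data. Tools were pysam 0.24.0, scipy 1.17.1 and numpy 2.4.6 under Python 3.11.15. Each group has 1 library, so there is no test between treatments. Alternatives covered the window, the score threshold, the overlap and the gene rule; windows around the main transcript and leaving out RNA polymerase III genes were chosen after seeing the data.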

Additional observations from a re-analysis of the deposited data

How the results depend on the processing

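Of 59 alternative values, 53 moved by less than their counting interval and 6 by more. This count sets each value against its own main value, not against the background. Around the start most shares counted as unmoved, although the order against the background turned there in all 5 lists. With a score of at least 100, 5.00% of ribosomal protein genes kept a DMSO MACS peak and 1.25% (Rps29) one of the second MACS list. The DMSO QESEQ share was 20.0% with a window of 1 kb and 45.0% with 5 kb. The IWR-1 QESEQ share was 12.5% around the start. Common sites lacking a call from the IWR-1 QESEQ list, the second MACS list or both made up 76.5%. No paired analysis was possible because each group has 1 library, and no library could be left out for the same reason. The study's methods give similar read totals for the libraries before duplicates were removed, but the lists hold no counts, and the reads behind single peaks could not be compared. Reads in exons can also match processed pseudogenes, and their placement was not tested.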

Other observations

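Ribosomal proteins outside the symbol rule gave 0 common sites in 7 genes. Rack1, a scaffold on the small subunit, was in the IWR-1 QESEQ list and the second MACS list, and Rps3a1 in the DMSO MACS list. Pseudogenes named for a ribosomal protein had a common site within 2 kb in 16 of 301, 5.32% (3.07 to 8.49), and other processed pseudogenes in 2.45% of 9935. A common site overlapped the pseudogene itself in 5 of 301, 1.66%, against 0.695%. The median lengths of these pseudogenes were 462 and 571 bp. Of the 72 RefSeq promoter windows of the 60 matched ribosomal protein genes, 15 held GGCGCC on either strand, 20.8%, against 11.9% of all 32851 windows, and GGAGCC was in 33.3% against 30.8%. The other motifs searched were in smaller shares than over all windows, CAGACA in 10 of 72 against 6913 of 32851, CTTTGAT in 0 against 3.73%, AGATAA in 6.94% against 11.2% and TGACTCA in 2.78% against 5.20%.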
